A study of Homo sapiens with 16 samples.

Results

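Strong natural stops are positions at which reverse transcriptase halted often on RNA that had received no CMC. A position was taken as a member when stop reads were at least 15% of its covering reads, with at least 50 covering reads, in both CMC- replicates of HCT116 or in both CMC- replicates of HEK293T, whatever its base. The rule gave 1272 positions with 1080 distinct sequences, of 719918 listed positions with 643076 distinct sequences in all. Positions with the same 31-base sequence were counted once, and 191 members had more than 1 listed copy. HCT116 chose 877 members of 28218 positions with enough covering reads (3.11%), HEK293T chose 227 of 53751 (0.422%), and 24 were chosen in both lines, which is 2.74% of the HCT116 members and 10.6% of the HEK293T members. For 34 members only counts are given. The stop percentages without CMC chose the members, so those values and the classes built on them are a description without a test.

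The study mapped pseudouridine in RNA selected on oligo(dT) beads, fragmented, and left untreated (CMC-) or treated with CMC, a carbodiimide whose adduct on pseudouridine halts reverse transcriptase. The 16 libraries form 8 groups of 2 replicates, all from polyadenylated RNA of 2 cell lines. HCT116-shDKC1 cells, the colorectal carcinoma line HCT116 with a knockdown of DKC1, were sequenced with CMC and Terminator and as CMC-. Wild-type HCT116 and wild-type HEK293T, an embryonic kidney line, were each sequenced with CMC and Terminator, with CMC alone, and as CMC-. DKC1 is the pseudouridine synthase of H/ACA ribonucleoproteins, and Terminator is an exonuclease that degrades RNA with a 5′ monophosphate. The knockdown is labelled shDKC1-1, a single hairpin name, and no clone is given. HEK293T libraries with Terminator carry the added treatment mark RE+ and those of HCT116 and HCT116-shDKC1 the mark XhoI, so this step differs with the line.

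Reverse transcriptase also halts without any chemical treatment. Methyl groups on the pairing face of a base, as in 1-methyladenosine (m1A), 1-methylguanosine (m1G), 3-methylcytidine (m3C) and N2,N2-dimethylguanosine (m2,2G), hinder the enzyme, and transfer RNAs are the richest carriers of such bases. Breaks in the RNA, its true 5′ end and stable folds end a cDNA as well, and such stops are the background against which a CMC method must find pseudouridine.

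The sequences below show the sites on which the results turn, with the listed stop base in capitals and up to 14 bases on either side, 5′ to 3′ as the tables give them. The first group are tRNA and rRNA sites at or beside bases known for modification. They are position 9 (m1G) of the mitochondrial leucine tRNA at chrM:3238-3238 (plus strand) and position 9 (m1A) of the asparagine tRNA at chrM:5721-5721 (minus strand). Then come positions 37 and 32 of the serine tRNA at chrM:7481-7481 and chrM:7486-7486 (minus strand), nucleotide 1249 of RNA18SN3 (18S rRNA) at chr21:8393913-8393913 (plus strand) and 28S base 1322 at chr21:8398238-8398238 (plus strand). The last are position 37 of an alanine tRNA at chr6:28729350-28729350 (plus strand) and position 33 of an aspartate tRNA at chr6:27583496-27583496 (minus strand), all in build hg38.
MT-TL1 position 9: gttaagatGgcagagcccggtaa
MT-TN position 9: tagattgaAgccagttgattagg
MT-TS1 position 37: tggggttggcttgaAaccagctttggggg
MT-TS1 position 32: ggccatggggttggCttgaaaccagcttt
18S nucleotide 1249: cggcttaatttgacTcaacacgggaaacc
28S base 1322: cccgacccgtcttgAaacacggaccaagg
tRNA-Ala-CGC-4-1 position 37: agcgcgtgcttcgcAtgtacgaggccccg
tRNA-Asp-GTC-3-1 position 33: tgagtgtccccgtcTgtcacgcgggagac

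The second group are a pair of EEF1A1 pseudogene members beside the coding transcript, shown because most members lie in such copies. EEF1A1P13 was listed at chr5:14652938-14652938 and EEF1A1P10 at chr7:144648186-144648186, both on the minus strand. The EEF1A1 stretch is chr6:73519150-73519178 (minus strand, 1 exon), taken from GENCODE release 29, and its capital marks the base that aligns with the members. Read 5′ from the capital, the match to a coding transcript first ends 5 bases away in EEF1A1P13 and 4 bases away in EEF1A1P10.
EEF1A1P13: tggtatctctaagaAtgggcagacccgag
EEF1A1P10: tgttatctcccagaAtgggcagacccgag
EEF1A1: tggtatctccaagaAtgggcagacccgag

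The third group are mRNA sites. The 4 mRNA members chosen in both lines are shown first because all are adenosines at or just after a run of A, and the 3 AHNAK sites follow because they fall in repeats of that long mRNA with the GTTCA letters of a tRNA T-loop. Positions are chr2:231712886-231712886 (PTMA, plus strand), chr11:123060118-123060118 (HSPA8, minus strand), chr19:12939234-12939234 (CALR, plus strand) and chr13:27256307-27256307 (RPL21, plus strand). The AHNAK sites are chr11:62530679-62530679, chr11:62524991-62524991 and chr11:62523029-62523029 (minus strand).
PTMA: aaactaaaaaaaaaAaggccgccgtgacc
HSPA8: acggcttagacaaaAaggtatgtaccatt
CALR: gaggagaaagataaAggtttgcagacaag
RPL21: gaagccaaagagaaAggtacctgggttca
AHNAK nucleotide 3984: gatgtggaggttcaAggcccagactggca
AHNAK nucleotide 9672: gatgtggatgttcaAggcccagactggca
AHNAK nucleotide 11634: gatgttgatgttcaAggcccagactggca

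The 16 libraries held between 8653041 and 31261783 reads. A position at the covering minimum is coarse: 8 stops in 50 covering reads is 16%, with a 95% Wilson interval of 8.3% to 28.5% that covers counting error only. At the threshold in HCT116, AHNAK nucleotide 3984 was just inside with 15.5% and 15%, and a position in MTRNR2L1 at chr17:22524062-22524062 was just outside with 15.3% and 14.9%. In HEK293T, a member in TOMM6 had 15.1% and 15.5%, and a position in DDX17 was just outside with 14.976% and 15.8%. Every listed position had a stop ratio in the treated library that was equal to or above the ratio of the paired control, so absence from a table is not absence of stops, and the direction of CMC+ against CMC- is set by the listing. The tables of HCT116 and HCT116-shDKC1 with Terminator hold whole counts and those of HEK293T fractional ones, so a difference between the lines cannot be told apart from a difference in counting. The epithelial genes KRT19 and EPCAM had listed positions in all 4 CMC- libraries of HCT116-shDKC1 and HCT116 and none in HEK293T, while VIL1 was listed in none. LIN28B was listed only in the HEK293T CMC- libraries, and GAL at 100 and 95 positions there against 2 to 4 in each of the others. DKC1 itself was listed at 2 and 1 positions in HCT116-shDKC1 and at 2 and 3 in HCT116 without CMC, too few to check the knockdown.

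By RNA class, the share of strong natural stops among listed positions was highest in gene copies and the 7SL and 7SK family. It was low in mRNA, rRNA and lncRNA. No listed position had fewer than 5 stop reads in its treated library, so positions with few covering reads were listed only at higher stop shares. The part of coverage in these class shares was not tested. In HCT116 the share of eligible positions that were members was 20.0% in MTRNR2L genes, nuclear copies of the mitochondrial large rRNA gene (70 of 350). It was 18.5% in other pseudogenes (475 of 2573), 14.96% in nuclear pseudogenes of mitochondrial genes (98 of 655) and 14.1% in the 7SL and 7SK family (82 of 580). Nuclear tRNAs had 10.2% (16 of 157), snRNAs 7.91% (17 of 215), mitochondrial tRNAs 7.53% (14 of 186) and copies of 5S or 5.8S rRNA 6.95% (13 of 187). In lncRNA 10 of 716 positions were members (1.40%), in mRNA 50 of 12418 (0.403%), in nuclear rRNA 22 of 5022 (0.438%) and in mitochondrial mRNA 3 of 3701 (0.081%). No position of the mitochondrial rRNAs was a member in HCT116, 0 of 1198, which allows a share of up to 0.25%.

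In HEK293T mitochondrial pseudogenes, mitochondrial tRNAs and MTRNR2L genes stood highest, and other pseudogenes and the 7SL and 7SK family did not. Mitochondrial pseudogenes had 11.1% (33 of 296), mitochondrial tRNAs 7.14% (8 of 112), MTRNR2L genes 6.38% (6 of 94) and nuclear tRNAs 4.55% (2 of 44). Other pseudogenes reached 2.53% (14 of 553) and mRNA 0.274% (113 of 41203), and mRNA supplied 49.8% of the HEK293T members against 5.70% of the HCT116 members. The 7SL and 7SK family gave 0 of 167, which allows a share of up to 1.8%, and mitochondrial rRNA 0 of 953, which allows up to 0.315%.

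**Figure D1:**
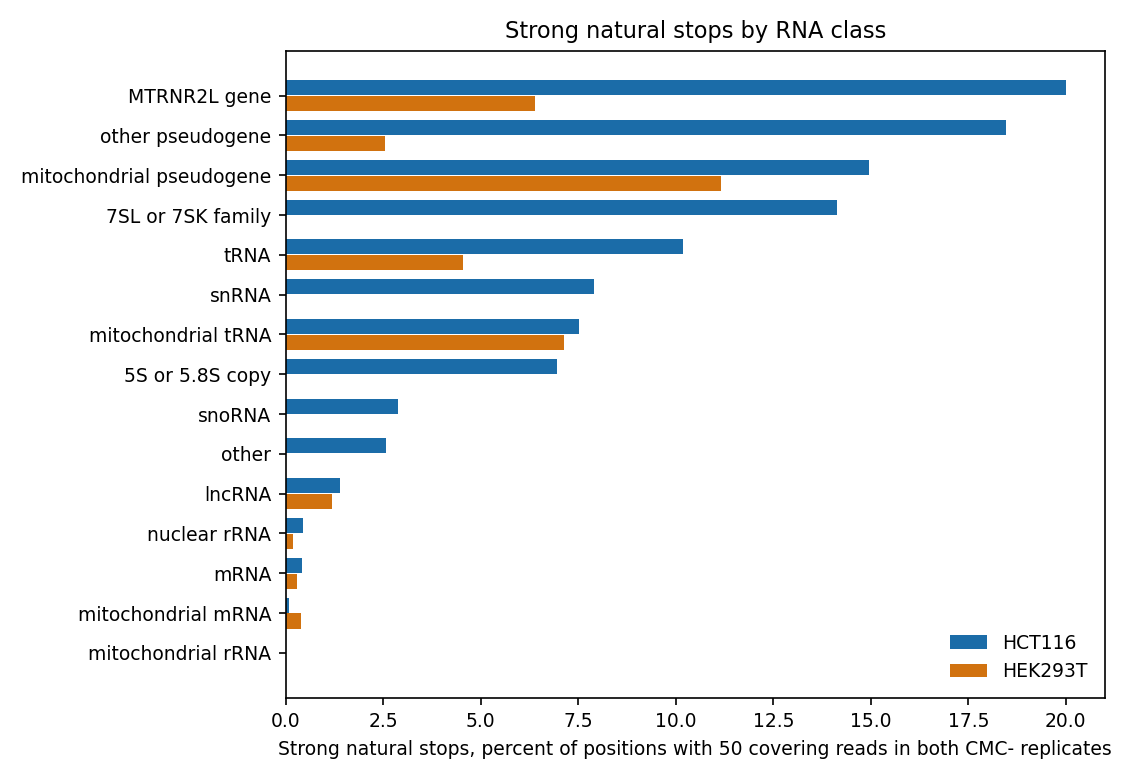
Percent of eligible positions (listed, with at least 50 covering reads in both CMC- replicates) that were strong natural stops, by RNA class. Blue bars are HCT116 and orange bars HEK293T. MTRNR2L genes stand highest in HCT116 at 20.0% and mitochondrial pseudogenes highest in HEK293T at 11.1%, while mRNA lies at 0.403% and 0.274%.

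Uridine was the most frequent base, with 506 of the 1080 members (46.9%), followed by 281 adenosines (26.02%), 170 guanosines (15.7%) and 123 cytidines (11.4%). The lines differed in base: U was 60.4% of HEK293T members, against 34.6% of the positions eligible there, and 43.1% of HCT116 members, against 35.6% of those eligible. In tRNAs of both kinds the order turned round. In HCT116, 12 of their members were A, 11 G, 5 U and 2 C, although U made up 44.0% of the eligible positions, and in HEK293T 6 were A and 4 G with no U or C.

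Mitochondrial tRNAs gave the clearest pattern by site. All 18 members fell on 4 canonical positions, 9 on position 9, 5 on position 37, 3 on position 36 and 1 on position 32, and none was a uridine. Position 9 is methylated to m1A or m1G by the TRMT10C complex. Position 37, next to the anticodon, carries the bulky ms2i6A in the phenylalanine, tryptophan, tyrosine and serine (UCN) tRNAs and m1G in the glutamine tRNA, and position 32 of the serine tRNA carries m3C. In HCT116, 8 of 10 eligible positions 9 were members, with a median of 20.6% stops, against 6 of 176 at other mitochondrial tRNA positions, whose median was 4.01%. In HEK293T the counts were 4 of 6, with a median of 24.9%, against 4 of 106 and 5.87%.

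At position 9 of MT-TL1 the stop percentage without CMC was 19.6 and 23.5 in HCT116-shDKC1, 17.9 and 22.7 in HCT116, and 32.01 and 33.8 in HEK293T. MT-TN had 22.8 and 20.7 in HCT116-shDKC1, 21.1 and 15.4 in HCT116, and 28.5 and 34.8 in HEK293T. MT-TQ had 18.8 in the 1 HCT116-shDKC1 library that listed it, 21.6 and 21.1 in HCT116, and 33.7 and 47.8 in HEK293T. In all 3 tRNAs both HEK293T libraries lay above every HCT116 and HCT116-shDKC1 library. MT-TF did not share that order, with 18.2 and 18.7 in HCT116-shDKC1, 18.5 and 18.9 in HCT116, and 18.3 and 14.2 in HEK293T. MT-TE also overlapped, with 33.8 and 27.6 in HCT116-shDKC1, 29.7 and 24.2 in HCT116, and 31.5 and 30.2 in HEK293T. It was not chosen in HEK293T, where at least 1 library had fewer than 50 covering reads. The remaining position 9 members were MT-TA, MT-TC and MT-TY, chosen in HCT116, and MT-TV, chosen in HEK293T with 17.2 and 19.2 and at 12.8 to 15.9 in the other 4 CMC- libraries.

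At position 37, the strongest site was in MT-TS1, with 33.7 and 33.96 in HCT116-shDKC1, 44.0 and 37.5 in HCT116, and 43.2 and 42.7 in HEK293T. Its neighbour at position 32 had 19.7 and 26.6 in HCT116-shDKC1 and 32.9 and 34.6 in HCT116, and was not listed in HEK293T. MT-TW position 37 was at 27.3 and 25.5 in HCT116-shDKC1, 27.5 and 26.7 in HCT116, and 27.4 and 29.8 in HEK293T. These values were the closest of these sites across the 3 cell populations. The site was not chosen in HEK293T, where at least 1 library had fewer than 50 covering reads. MT-TQ position 37 was chosen in HEK293T alone, with 15.8 and 15.2, against 7.01 and 6.41 in HCT116-shDKC1 and 8.02 and 5.78 in HCT116. The 3 members at position 36 were in MT-TQ, MT-TW and MT-TY, each of them 1 base 5′ of a member at position 37.

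**Figure D2:**
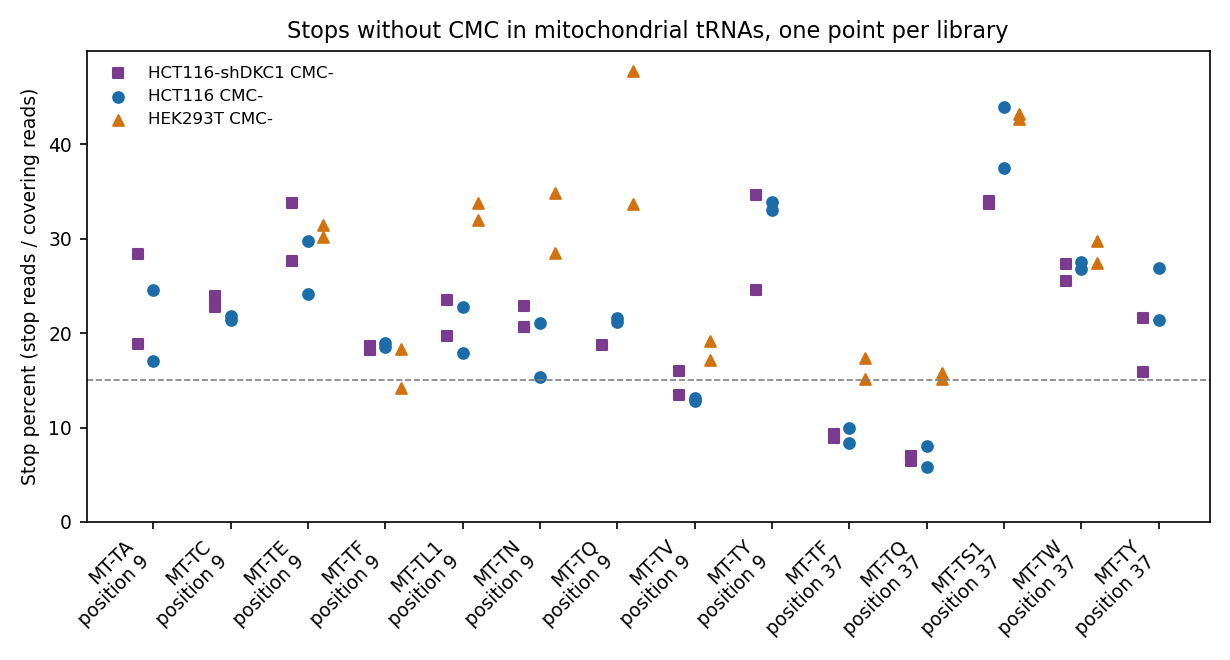
Stop percent without CMC at the 14 mitochondrial tRNA members at positions 9 and 37, with 1 point per library and the 15% threshold dashed. At position 9 of MT-TL1, MT-TN and MT-TQ both HEK293T points lie above all others, and MT-TS1 position 37 is high in every library, between 33.7 and 44.0.

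Nuclear tRNAs held 18 members, and 12 of them lay at positions that carry blocking bases in some or all tRNAs: 3 at position 9, 2 at position 26 (m2,2G), 5 at position 37 and 2 at position 58, the T-loop m1A. Whether each of these tRNAs carries one was not tested. tRNA-Ala-CGC-4-1 position 37, which carries a methylated inosine in alanine tRNAs, had 61.0 and 62.3 in HCT116-shDKC1, 58.6 and 57.8 in HCT116, and 57.9 and 53.4 in HEK293T, where covering reads were below 50. Both HCT116-shDKC1 libraries lay above both of HCT116, which overlapped with HEK293T. Leucine tRNAs with anticodons AAG, CAG and TAG, all with m1G at position 37, had 15.9% to 23.0% in HCT116 without CMC. The strongest HCT116 member of all was position 33 of tRNA-Asp-GTC-3-1, with 80.0 in the 1 HCT116-shDKC1 library that listed it and 78.3 and 81.7 in HCT116. The same position of tRNA-Asp-GTC-2-1 had 38.8 in HCT116-shDKC1 and 41.0 and 36.5 in HCT116. The 2 aspartate tRNA genes differ in sequence 2 bases 5′ of this site, so it also lies beside a mismatch between copies. Position 33 lies 1 base 5′ of position 34, which carries queuosine in this tRNA. The part of that base, or of reads shared between tRNA copies, in these stops was not tested.

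In nuclear rRNA, the modified bases of mature subunits were few among the members. RNA18SN3 nucleotide 1249, the hypermodified m1acp3-pseudouridine of 18S, had 5.98 and 5.68 in HCT116-shDKC1, 6.14 and 5.10 in HCT116, and 15.4 and 19.2 in HEK293T, so that only HEK293T chose it. 28S base 1322, an m1A, had 16.5 and 14.6 in HCT116-shDKC1, 16.3 and 14.3 in HCT116, and 22.4 and 22.7 in HEK293T. A 28S adenosine at chr21:8216349-8216349 was chosen in both lines and ran the other way, with 26.04 and 25.9 in HCT116-shDKC1, 27.4 and 24.7 in HCT116, and 17.1 and 17.4 in HEK293T. No modification on the site list falls at this adenosine. Its 31-base sequence was listed in 1 gene copy only, RNA28SN2. It had 1929 and 2605 covering reads in HCT116 without CMC, against 17031 and 21756 at base 1322. Its values thus describe a variant of 1 copy and not 28S rRNA as a whole. Of the other members, 18 lay in the 45S precursor, 14 of them 5′ of 18S, 3 between 18S and 28S and 1 from the start of 28S on. The 3 highest were uridines 5′ of 18S, led by RNA45SN3 nucleotide 3131 with 49.2 and 47.5 in HCT116.

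Other sites known for methylation stayed under the threshold. The m1A of the mitochondrial large rRNA (MT-RNR2 nucleotide 947) had 6.02 and 6.27 in HCT116-shDKC1, 6.47 and 5.15 in HCT116, and 12.2 and 13.8 in HEK293T. The m1A of MT-ND5 mRNA (nucleotide 1374) had 6.10 and 7.83 in HCT116-shDKC1, 5.23 in the 1 HCT116 library that listed it, and 12.4 and 10.8 in HEK293T. The dimethyladenosine at RNA18SN3 nucleotide 1851 had 11.9 and 11.2 in HEK293T and at most 4.39 in the other CMC- libraries. All told, 29 of the 1080 members (2.69%) sat at a position of the site list. That list covers tRNA and rRNA sites and the MT-ND5 site and was written with earlier results of these data known.

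Mitochondrial mRNA gave 13 members, 10 of them chosen in HEK293T alone. MT-ND2 nucleotide 624, a uridine of the coding sequence at chrM:5093-5093, had 33.3 and 29.4 in HEK293T, while it had 9.64 in the 1 HCT116-shDKC1 library that listed it and 9.65 and 7.78 in HCT116. MT-ATP8 nucleotide 139, at chrM:8504-8504, was the member chosen in both lines, with 18.5 and 17.6 in HCT116-shDKC1, 18.5 and 16.1 in HCT116, and 24 and 25.7 in HEK293T. The pair in MT-ATP6 chosen in HCT116 alone were neighbours, nucleotides 337 and 338, with 22.1 and 21.1 at the first and 19.1 and 20.1 at the second.

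Pseudogenes carried most of the members, 124 in copies of mitochondrial genes and 486 in all other pseudogenes. Copies of EEF1A1, the translation elongation factor, gave 146 members in 28 genes. Copies of RPS2 gave 32 in 11 genes, RPSA 26 in 20, GAPDH 20 in 7 and FTH1 16 in 9. The highest 2 by their HCT116 mean were uridines. AP000763.2 had 73.3 in the 1 HCT116-shDKC1 library that listed it and 71.95 and 65.6 in HCT116. RPSAP15, a copy of the ribosomal protein gene RPSA, had 71.4 and 72.9 in HCT116-shDKC1 and 72.7 and 60.3 in HCT116.

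To see what the copies shared, the bases on each side of a copy position were compared with 83142 protein-coding and mitochondrial transcripts. The 15 bases 3′ of the site were looked up, and the 15-base window was then moved 5′ by 1 base at a time. The match ended where a window was first found in none of these transcripts. Each window could match a different transcript, so the match need not follow a single parent. In HCT116 the match ended at the site or within 5 bases of it at 328 of 630 members (52.1%) and at 223 of 2790 other copy positions (7.99%). In HEK293T it did so at 16 of 51 members (31.4%) and 11 of 838 other copy positions (1.31%). Within 3 bases the counts in HCT116 were 167 of 630 members (26.5%) and 63 of 2790 other positions (2.26%). Members also lay close together. Of 1057 HCT116 member positions of all classes, 443 (41.9%) had another within 5 nucleotides, and in HEK293T 50 of 241 (20.75%). A single mismatch can thus lie beside several members, so these counts are not of independent sites. The match ended at the site itself in MTRNR2L1, MTRNR2L8 and AP000763.2 and 1 base 5′ of it in RPSAP15. How reads that match several places were counted is not stated, and the part of such reads in these stops was not tested.

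**Figure D3:**
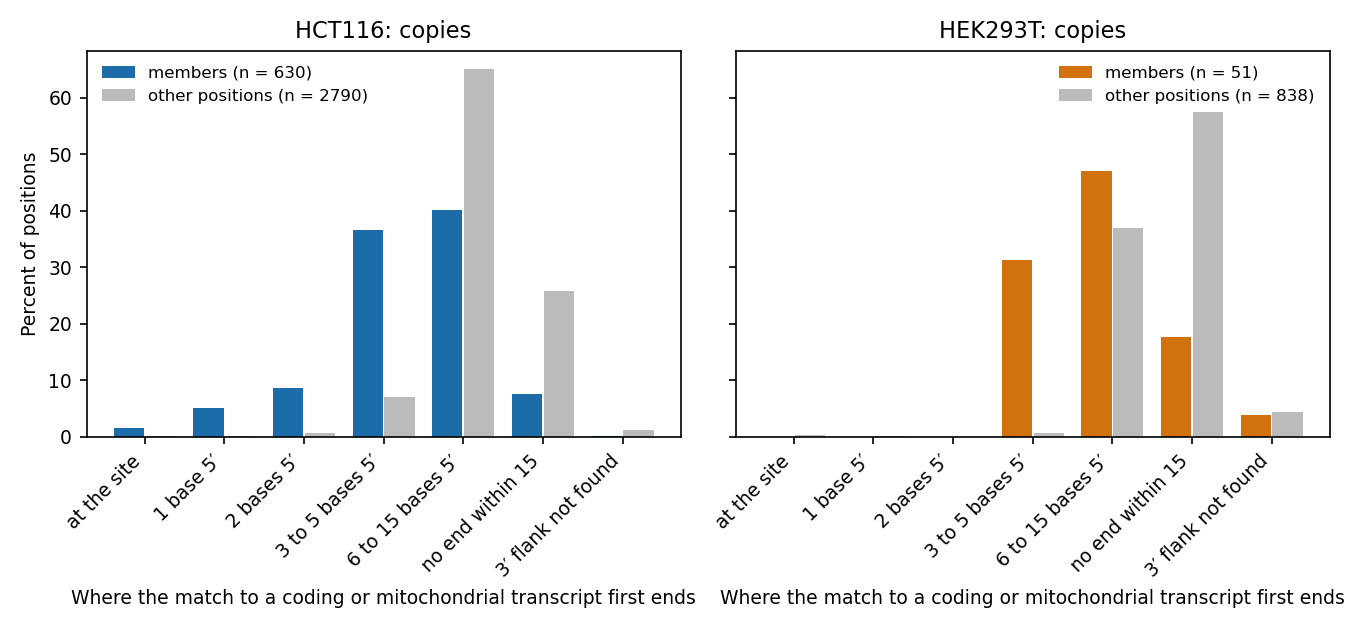
Percent of copy positions (pseudogenes, MTRNR2L and similar genes) by the distance 5′ of the site at which the match to a coding or mitochondrial transcript first ends, for HCT116 on the left and HEK293T on the right. Coloured bars are members (n = 630 and 51) and grey bars other positions (n = 2790 and 838); the match ended within 5 bases in 52.1% and 31.4% of members, against 7.99% and 1.31% of other positions.

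In mRNA the 158 members followed another sequence pattern, mainly in HEK293T. There, 68.1% of mRNA members were U, against 35.1% of eligible mRNA positions. The base before the site was U in 47.5% of members and 19.7% of other mRNA positions, and the base after it was G in 34.3% of members and 64.4% of others. The 15 bases upstream averaged 39.9% G and C in members and 55.3% in other positions. In HCT116 the mRNA members were closer to the rest, with U at 34% of members and 38.8% of eligible positions and 50.8% G and C upstream in members against 54.9% in others.

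Members were frequent near annotated mRNA starts. In HEK293T 24 of 113 mRNA members (21.2%) lay in the first 50 nucleotides of their transcript, against 2099 of 41090 other mRNA positions (5.11%). In HCT116 the counts were 5 of 50 (10.0%) and 355 of 12368 (2.87%). CTNNB1 (beta-catenin) nucleotide 5 had 42 in 1 HCT116 library and 53.1 and 53.2 in HEK293T. RPL23 nucleotide 10 had 46.4 and 51.4, and RPL9 nucleotide 3 had 40.5 and 42.1, in HEK293T; both encode large-subunit ribosomal proteins whose mRNAs begin with a pyrimidine tract. RPL9 also had 30.6 in 1 HCT116 library. SLC25A5, a mitochondrial ADP/ATP carrier, had at nucleotide 21 a value of 56.1 in 1 HCT116-shDKC1 library, 62.9 and 61.2 in HCT116, where coverage was below the minimum, and 43.7 and 51.4 in HEK293T.

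Away from the start, the strongest HEK293T member was a guanosine of TPI1 (triosephosphate isomerase) nucleotide 110, with 67.5 and 75. ATP5MC3, a subunit of the mitochondrial ATP synthase, followed with 56.9 and 53.9 at a guanosine of a 5′ UTR. HNRNPA2B1 and HSP90AA1 had the most mRNA members, 5 each, followed by AHNAK and RPL23 with 4 each. The 5 in HSP90AA1 were all uridines, chosen in HEK293T, between 15.5% and 23.0%.

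The 4 mRNA members chosen in both lines were adenosines after short A-rich stretches. PTMA had 29.9 and 34.3 in HCT116-shDKC1, 32.9 and 39.6 in HCT116, and 16.8 and 18.03 in HEK293T. HSPA8, the constitutive Hsc70 chaperone, had 20.8 and 21.5 in HCT116-shDKC1, 24.7 and 27.1 in HCT116, and 19.9 and 17.3 in HEK293T. RPL21 had 14.8 and 8.87 in HCT116-shDKC1, 18.8 and 17.8 in HCT116, and 26.3 and 26.6 in HEK293T. PTMA was thus lower in HEK293T and RPL21 higher there, without overlap between the lines. The 31-base sequence at the RPL21 site was listed at 15 positions, of which 1 was a member. Whole counts in HCT116 and fractional ones in HEK293T mean that this difference cannot be told apart from counting. The part of reads shared between these copies was not tested. HSPA8 and CALR lie 2 and 1 bases before an annotated exon end. Both were assigned to a transcript without a coding sequence. So were 9 mRNA members chosen in HCT116 alone and 23 chosen in HEK293T alone. Within 3 bases of an exon end lay 2 of 50 mRNA members in HCT116 (4%), HSPA8 and CALR themselves, against 2.51% of other mRNA positions. In HEK293T the count was 5 of 113 (4.42%), HSPA8 and CALR among them, against 3.27%. The part of exon ends or unspliced RNA in these stops was not tested.

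The only mRNA members with the letters of a tRNA T-loop site were 3 near-identical repeats of 1 gene, AHNAK. The part of reads shared between these repeats was not tested. m1A at position 58 of tRNAs is placed by TRMT6 and TRMT61A in a T-loop whose sequence reads GTTCAA or GTTCGA, and the same enzyme is known to act on T-loop-like mRNA sites. The 3 AHNAK sites, in exon 5 of the coding sequence, had 14.9% to 17.9% in HCT116-shDKC1 and 15% to 18.3% in HCT116. Searched on the RNA strand only, A in GTTCAA or GTTCGA (the second A of the first, the last A of the second) was a member at 4 of 23 eligible positions in HCT116 and 2 of 29 in HEK293T. Other adenosines were members at 236 of 6230 and 50 of 12800. The median stop percentage was 4.92 at eligible positions with these letters and 3.47 at other adenosines in HCT116. In HEK293T the medians were 5.37 and 4.74. In HCT116, 3 of the 4 members were the AHNAK repeats, so the count rests mainly on 1 gene. The fourth in HCT116 was EEF1A1P28, and those in HEK293T were tRNA-Gly-CCC-chr1-137 and tRNA-Ser-GCT-1-1. The match describes letters and does not show a modification.

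The remaining RNA classes gave the other leading members. RN7SL564P and RN7SL326P, copies of the signal recognition particle RNA, had 69.0 and 63.1, and 60.8 and 56.8, in HCT116. A uridine of MTRNR2L1 had 62.5 in 1 HCT116-shDKC1 library and 68.2 and 64.4 in HCT116. Among snRNAs RNVU1-19, a U1 variant, led with 41.9 and 41.5 in HCT116. Among lncRNAs GAS5 had 49.1 and 38.9 in HCT116 and SNHG29, at a run of U, had 24.2 in 1 HCT116-shDKC1 library and 32.1 and 36.5 in HCT116. The 3 snoRNA members were SNORA109 with 24.6 and 21.8, SNORD3B-1 with 26.4 and 46.4 and SNORD3D with 15.6 and 17.1 in HCT116; both SNORD3 genes are near-identical copies of U3.

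The HCT116-shDKC1 libraries took no part in the choice and show how far the stops recurred. Of the 877 members chosen in HCT116, 487 had 50 covering reads in both HCT116-shDKC1 CMC- libraries, and 377 of these (77.4%) reached 15% in both, with a median of 20.1%. Among other positions eligible in HCT116, 78 of 14614 did (0.534%), with a median of 3.03%, and over all positions the share was 3.01%. Per position the mean stop percentage was 0.82 points lower in HCT116-shDKC1 than in HCT116 at the median of 483 members with values, and between -5.88 and 3.67 points at the 5th and 95th percentiles. High HCT116 values chose these members, so a lower value in libraries outside the choice follows from the rule, and nothing is read from it. Pearson's r across these 483 positions was 0.939, given as a description since they share libraries. By class, 12 of 13 mitochondrial tRNA members, 38 of 44 in the 7SL and 7SK family, 195 of 260 in other pseudogenes and 16 of 24 in mRNA recurred.

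**Figure D4:**
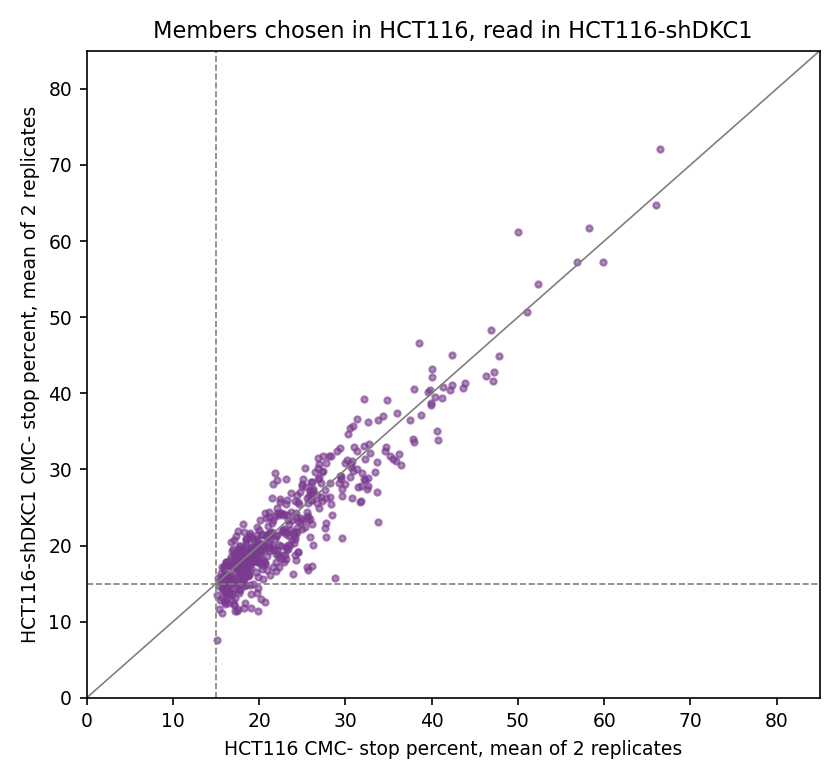
Mean stop percent without CMC of 483 members chosen in HCT116, with HCT116-shDKC1 on the vertical axis and HCT116 on the horizontal, 1 point per distinct sequence. Points follow the diagonal line of equal values, and part of them fall under the dashed 15% line of HCT116-shDKC1, as the count of 377 of 487 states.

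Across cell lines fewer members recurred. Of HCT116 members with 50 covering reads in both HEK293T CMC- libraries, 24 of 42 (57.1%) reached 15% there, against 38 of 10847 other positions (0.350%) and 0.569% of all. Of HEK293T members readable in HCT116, 24 of 65 (36.9%) did, against 16 of 10896 other positions (0.147%) and 0.365% of all. In HCT116-shDKC1 it was 20 of 54 (37.0%), against 16 of 9825 (0.163%) and 0.364% of all. The other members of each line were not listed in the other line or had fewer than 50 covering reads there.

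Among listed positions, the fold with CMC and Terminator was smaller at members than at others. The fold is the mean stop percentage with CMC and Terminator over that without CMC. In HCT116-shDKC1 its median was 1.33 over 505 listed members and 1.55 over other positions. It was 1.28 over 877 members and 1.56 over other positions in HCT116, and 1.31 over 227 members and 1.61 over other positions in HEK293T. A fold of at least 2 was reached by 36 members in HCT116-shDKC1 (7.13%, against 25.7% of all positions), by 20 in HCT116 (2.28%, against 27.4%) and by 10 in HEK293T (4.41%, against 26.7%). A high starting value limits the fold, since a stop percentage cannot pass 100, and 17 HCT116 and 3 HEK293T members were at or above 50% without CMC. The listing bears on the fold too. No listed position had fewer than 5 treated stop reads, so positions with few stops were listed mainly where the treated value was high. The order of the folds is thus in part set by the listing, and nothing is read from it. In points the order was reversed. The median difference in HCT116-shDKC1, which took no part in the choice, was 6.99 points for members and 1.75 for other positions. It was 6.25 points for members and 1.85 for other positions in HCT116, and 6.18 for members and 2.8 for others in HEK293T. The HCT116 and HEK293T folds and point differences share the CMC- values that chose the members, so nothing is read from them.

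By base, the folds of members are given without a test. In HCT116-shDKC1 the median was 1.34 for U members, 1.37 for A, 1.32 for G and 1.27 for C, and in other positions it was 1.60 for U, 1.5 for A, 1.53 for G and 1.54 for C. In HEK293T it was 1.33 for U members and 1.35 for A, with 1.14 for G and 1.17 for C. CMC without Terminator gave a median of 1.18 in the HCT116 members listed there and 1.24 in other positions, and 1.18 in HEK293T members and 1.33 in other positions. In HCT116 this fold sets fractional counts with CMC alone against whole counts without CMC, so CMC and counting cannot be told apart there.

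**Figure D5:**
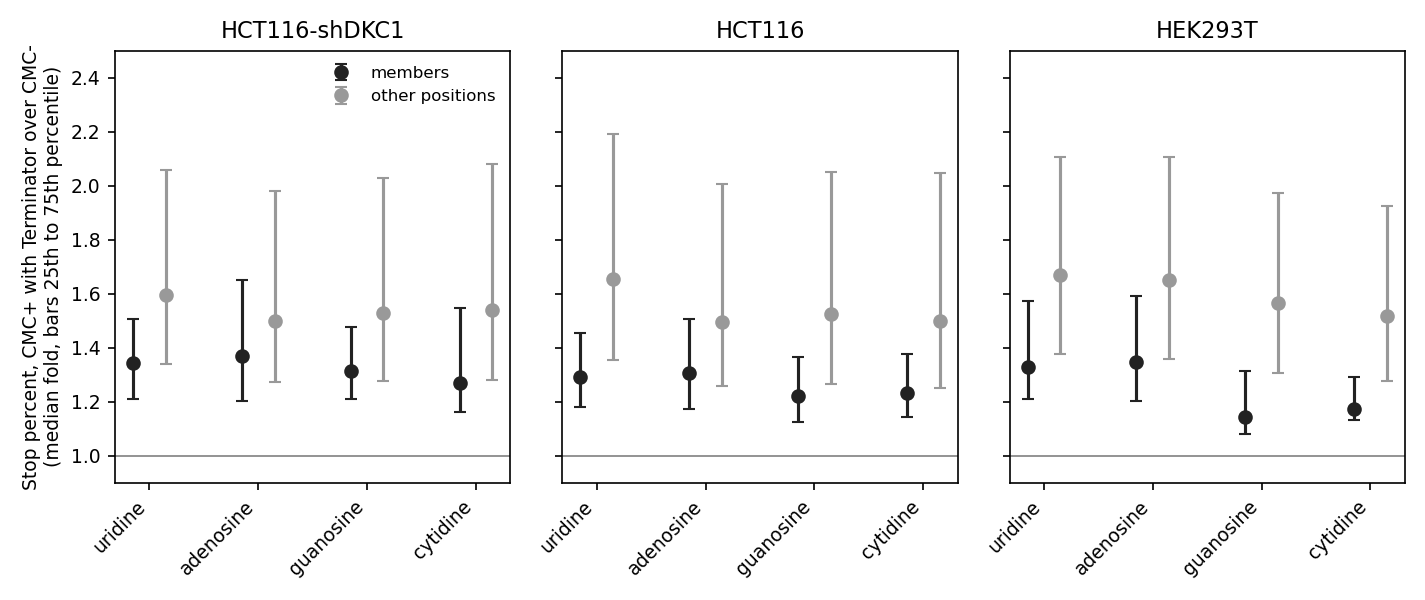
Median fold of the stop percent, CMC+ with Terminator over CMC-, by base for members (black) and other positions (grey) in HCT116-shDKC1, HCT116 and HEK293T, with bars from the 25th to the 75th percentile; the axis starts at 0.9. Among listed positions, members lie below others at every base, with U members at 1.34, 1.29 and 1.33.

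Within HCT116-shDKC1, whose libraries were not used in the choice, CMC and Terminator against CMC- was tested with edgeR's quasi-likelihood test on stop reads relative to covering reads. A position was called at a Benjamini-Hochberg adjusted p under 0.05 over all positions and a fold of at least 2. The fit held all 8 Terminator-table libraries of HCT116-shDKC1 and HCT116. Of 15169 positions 2848 were called higher (18.8%) and 0 lower, and the listing, which keeps positions with a treated ratio at or above the control, limits the lower side. Of the 551 members tested 34 were called higher and 0 lower. With p not adjusted and below 0.05, 134 members were higher, against 47.3% of all positions, and none lower. DESeq2 called 15. The median log2 change was 0.41 over members and 0.56 over all positions. The listing bears on these medians and on the shares called, as on the folds, so nothing is read from their order. By base, 17 of 148 A members, 10 of 272 U members, 4 of 73 G members and 3 of 58 C members were called, against 17.9%, 19.6%, 18.3% and 21.0% of other positions with A, U, G and C. By class 22 of 279 in other pseudogenes and 7 of 38 in mRNA were called. The share called over all positions of each class was not computed, so nothing is read from these class counts. Setting stop reads against library totals gave 38 members higher and 4 lower, against 3230 higher and 26 lower over all positions. TMM scaling gave 22 members higher and 48 lower, against 2050 higher and 492 lower over all positions. The split of directions thus changes with the scaling. With the replicate block, leaving out 1 library leaves the contrast to the other replicate pair alone, and fewer members were called. The log2 change of EEF1A1P13 was then 1.99 without replicate 1 of either treatment and 1.45 without replicate 2.

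The 3 largest rises were at adenosines. EEF1A1P13 had 46.2 and 51.2 with CMC and Terminator in HCT116-shDKC1, against 16.8 and 12.8 without CMC. Its log2 change was 1.76 (SE 0.20, edgeR adjusted p = 3.5e-05). EEF1A1P10, the copy beside it above, had 45.7 and 52.4 with CMC and Terminator, against 17.5 and 14.5 without CMC, a log2 change of 1.64 (SE 0.21). Their stop reads were the same number in all 8 libraries, so the values are not independent of each other, and only the covering reads differ. Among the 34 called members, 5 shared their stop reads with another in this way, the others being AL158047.1, RPS2P4 and RPS2P32, which leaves 31 distinct sets. Of 871 HCT116 members with values, the 4 HCT116 libraries gave 819 distinct sets.

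HSPA8 had 73.0 and 61.1 with CMC and Terminator in HCT116-shDKC1, against 20.8 and 21.5 without CMC, a log2 change of 1.66 (SE 0.18, edgeR adjusted p = 3e-05). In HCT116 the same adenosine had 68.1 and 56.6 with CMC and Terminator, 25.9 in the 1 library with CMC alone that listed it, and 24.7 and 27.1 without CMC. In HEK293T it had 33.8 and 41.99 with CMC and Terminator, 18.3 with CMC alone in 1 library, and 19.9 and 17.3 without CMC. In both lines the 1 library with CMC alone lay within the CMC- values and both libraries with Terminator lay above them.

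Of the known sites, RNA18SN3 nucleotide 1249 rose, with 16.99 and 15.8 with CMC and Terminator in HCT116-shDKC1 against 5.98 and 5.68 without CMC, a log2 change of 1.45 (SE 0.08, edgeR adjusted p = 1.6e-07). Under TMM scaling it was 0.87, below the 2-fold threshold. In HEK293T it had 35.9 and 34.8 with CMC and Terminator, 24.9 and 24.5 with CMC alone, and 15.4 and 19.2 without CMC. MT-TA position 9 was called at a log2 change of 1.00 (SE 0.17), with 50 and 42.9 with CMC and Terminator against 28.4 and 18.9 without CMC. Its log2 change was 0.95 without the replicate block and 0.81 without replicate 2 of either treatment, both under the 2-fold threshold, 0.04 under library totals and -0.28 under TMM scaling. tRNA-Glu-TTC-3-1 position 9 was also called, at a log2 change of 1.02 (SE 0.28). 28S base 1322 was not called, with a log2 change of 0.49 (SE 0.08), nor was MT-TS1 position 37, with 0.34 (SE 0.11).

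In HEK293T, adding Terminator to CMC could be tested for 119 members, since neither side chose them. Over all 11185 positions 106 were called higher (0.948%) and 1 lower (0.00894%). Among members, edgeR called 0 in either direction, DESeq2 called 0, and 5 had a higher value with p not adjusted and below 0.05, against 12.2% of all positions. The median log2 change was 0.10 over members and 0.23 over all positions. Under library totals 16 members were called higher and 2 lower, against 1859 higher and 14 lower over all 11185 positions. Under TMM scaling 1 member was called higher and 14 lower, against 144 higher and 201 lower over all positions. The count of higher positions was 0 without the second Terminator replicate, 53 without the first CMC+ replicate, 1 without the second, and 102 without the first Terminator replicate.

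Knockdown against wild type, both with CMC and Terminator, showed no called difference. edgeR called 0 of 15169 positions in either direction, so that the share called was 0.0%, and DESeq2 also called 0. With p not adjusted and below 0.05, 37 positions were higher (0.244%) and 173 lower (1.14%) in HCT116-shDKC1. Among the 551 members 1 was higher and 0 lower. All 551 members had a fitted difference of less than 2-fold, the largest being 0.73 on the log2 scale, and the 95% interval of a member reached 0.51 log2 units to either side at the median. For HSPA8 the log2 difference was 0.09 (SE 0.17), and for RNA18SN3 nucleotide 1249 the values were 16.99 and 15.8 in HCT116-shDKC1 and 19.3 and 15.8 in HCT116.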

How the data were processed

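Stop and covering reads per position came from 10 tables, each pairing a treated library with a control. The submitters' processing notes name cutadapt 2.8, STAR and the build hg38, without their order or roles, and how reads matching several places were counted is not given in the sources used here. The deposited HCT116 and HCT116-shDKC1 Terminator tables hold whole counts. The deposited HEK293T tables and the HCT116 tables with CMC alone hold expected counts, fractional in their values, rounded to whole numbers for testing. RPM columns are the authors' stop reads scaled to library size, and library totals were taken as stop reads over RPM. In all, 6 per-sample columns that no label identifies were not used.

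Positions with 1 sequence were counted once. The tests used edgeR 4.0.16 (R 4.3.3) with the log of covering reads as offset, only positions where 2 or more libraries reached 10 stop reads, and Benjamini-Hochberg adjustment over all positions. DESeq2 1.42.0 was an alternative. Both tests within a cell line carried the replicate number as a block. The correlation of deviations between same-numbered libraries was 0.053 to 0.335 in the 3 pairs of HEK293T groups and 0.31 between the HCT116-shDKC1 groups. The labels do not say that replicates were separate cultures, so p-values measure only the spread between these samples. Other values were computed in Python 3.11.15 with pandas 2.3.3 and scipy 1.17.1, with GENCODE 29 for transcripts.

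The members and lists were chosen with earlier results of these data known. The naming rule took the 8 highest members of each line, the 3 highest of each RNA class, every member on the site list or the T-loop motif, 3 positions on each side of the threshold and the 3 largest called changes. Other named members were picked after their values were seen.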

Additional observations from a re-analysis of the deposited data

How the results depend on the processing

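The number of strong natural stops follows the threshold. It was 1080, and became 3499 at a stop percentage of at least 10, 480 at 20, 2254 with at least 30 covering reads and 296 with at least 100. Leaving out either replicate gave 2810 to 3144. For Terminator added to CMC in HEK293T, 107 called positions became 1873 with library totals, 345 with TMM, 10 with DESeq2, 0 to 102 with a library left out and 128 without the replicate block. Members called became 18 with library totals and 15 with TMM. For CMC with Terminator in HCT116-shDKC1, 2848 became 1771 with DESeq2, 5153 with every copy kept, 1595 to 1881 with a library left out and 2566 without the replicate block. The 34 members called became 70 with TMM, 15 with DESeq2, 19 to 20 with a library left out and 29 without the replicate block. For HCT116-shDKC1 against HCT116, 1 position was called with library totals and 1 with TMM, and 0 with the replicate block. MT-TA position 9 turned to -0.28 under TMM. The causes were not tested. Positions near 50 covering reads carry wide counting intervals.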
